A study of Arabidopsis thaliana with 10 samples.

Results

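The transcripts described here come from the genomes that chloroplasts and mitochondria keep of their own. They were taken as the 150 probe sets of one unbroken run of id numbers on the Affymetrix ATH1 array of Arabidopsis thaliana, the block that holds organelle transcripts, out of 22810 probe sets in all. By the platform annotation and the deposited descriptions, 79 of these probe sets named a chloroplast gene (78 genes, with 2 probe sets for *rps12*) and 14 named a mitochondrial gene. A further 37 carried descriptions such as hypothetical protein that name neither genome and are called unassigned. Of these, 4 were also annotated to loci on chromosome 2, and were left unassigned because they were described as hypothetical protein. The remaining 20, which follow each other near the end of the run, went against the label: 10 were annotated to nuclear loci on chromosome 2 and the other 10 carried descriptions that name no organelle gene. They were treated as nuclear and kept out of the organelle counts.

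Chloroplasts descend from a cyanobacterium and mitochondria from another bacterium, and both retain small genomes that encode core parts of photosynthesis or respiration together with some of the ribosomal proteins needed to translate them. In leaves the chloroplast genome is transcribed by a bacterial-type RNA polymerase, whose core is encoded in the chloroplast and whose sigma factors are imported from nuclear genes, and by a phage-type polymerase of nuclear origin. Mitochondria depend on phage-type polymerases alone. Chloroplast genes are largely transcribed in clusters and cut into smaller RNAs afterwards, so that levels depend on processing and decay as well as on transcription. Jasmonate, the hormone of wounding and insect attack, is known to lower photosynthesis genes in leaves while it raises defence genes.

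Plants were 21 days old and of the wild type Col-0 or of Ri17, a transgenic *JAV1* RNAi line in the Col-0 background and the 1 such line among these samples. For each genotype 1 array was hybridised with RNA of untreated plants, 1 each after 1 h and 4 h of 100 µM methyl jasmonate (MeJA) and 1 each at 30 min and 60 min after wounding, in which 4 rosette leaves were crushed with forceps and about 30% of each leaf was damaged. MeJA was given to seedlings grown in MS medium and leaves were taken from all plants. No array held plants given medium without MeJA, so that the hormone and its handling cannot be told apart, and the 4 treatments share the same 2 untreated arrays. With 1 untreated array per genotype, elapsed time or time of day cannot be told apart from treatment either. Each treatment difference below is a log2 difference ± standard error from limma with genotype and condition as additive terms, that is, the mean of 1 Col-0 pair and 1 Ri17 pair of arrays. The words rose, fell and called refer to a Benjamini-Hochberg adjusted p under 0.05 over the 15382 probe sets that had a Present call on 2 or more arrays. The labels do not say that the arrays of both genotypes came from separate cultures, and the spread holds array noise together with any difference between the genotypes in their response.

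Median signal per array lay between 122.4 and 134.3, and an array had 12971 to 13905 Present calls. Of the leaf markers, the Rubisco activase gene *RCA* was the 1 of 11 with a named probe set, and its signal ran from 17634 to 36669, with 21121 (Col-0) and 17634 (Ri17) at 4 h of MeJA and 21227 or more on the other arrays. Of 11 root markers 2 had a named probe set, the root hair expansin genes *EXPA7* (4.2 to 44.7) and *EXPA18* (3.2 to 80.6), and both were called Present on 0 of the 10 arrays. The 12 poly-A control probe sets had a median log2 difference of 0.57 (0.16 to 1.15) between the MeJA arrays and the other 6, and for 8 of the 12 all 4 MeJA arrays lay above all others. Among the hybridization controls, the *bioB*, *bioC* and *bioD* probe sets were each lowest on both 4 h MeJA arrays. The *bioC* 5' probe set measured 1034 (Col-0) and 1033 (Ri17) there, against 1450 and 1442 untreated and 1244 or more on the other arrays. For *cre* the 4 h arrays overlapped the others (14697 and 13658 for its 5' probe set, against 13770 and 16641 untreated). The part of either kind of control in the MeJA results below was not tested. The silenced gene, *JAV1*, was not analysed here because it had no named probe set in the annotation used. In bulk RNA, fewer cells or organelles of a kind and less RNA in each cannot be told apart.

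All 79 chloroplast probe sets passed the detection filter, and 77 of them were called Present on every array. Of the 14 mitochondrial probe sets 13 passed and 10 were Present on every array. The other was *matR*, the gene of an intron maturase, which was Present on 0 arrays. Of the 37 unassigned probe sets 19 passed. Chloroplast probe sets carried 3.78% of the summed signal of the untreated Col-0 array and 4.03% of that of the untreated Ri17 array. This share was 3.35% and 3.23% at 1 h of MeJA, 2.68% and 2.87% at 4 h, 3.96% and 3.74% at 30 min after wounding, and 3.76% and 3.53% at 60 min. All 4 MeJA arrays thus lay below all 6 others, and both arrays at 4 h lay below both at 1 h. The share of the 13 mitochondrial probe sets was 0.0514% (Col-0) and 0.0379% (Ri17) untreated. It was 0.0468% and 0.0400% at 1 h of MeJA and 0.0433% and 0.0389% at 4 h. After wounding it was 0.0490% and 0.0429% at 30 min and 0.0411% and 0.0432% at 60 min. By this share the MeJA arrays lay among the others. A different measure is the array mean of log2 signal over these 13 probe sets, which weighs each alike. These means ran from 7.84 on the untreated Ri17 array to 8.48 on the Col-0 1 h MeJA array. Both 1 h MeJA arrays (8.48 and 8.29) lay above all untreated and wounded arrays (7.84 to 8.23), while of the 4 h MeJA arrays Col-0 lay above them (8.38) and Ri17 among them (8.06).

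**Figure D1:**
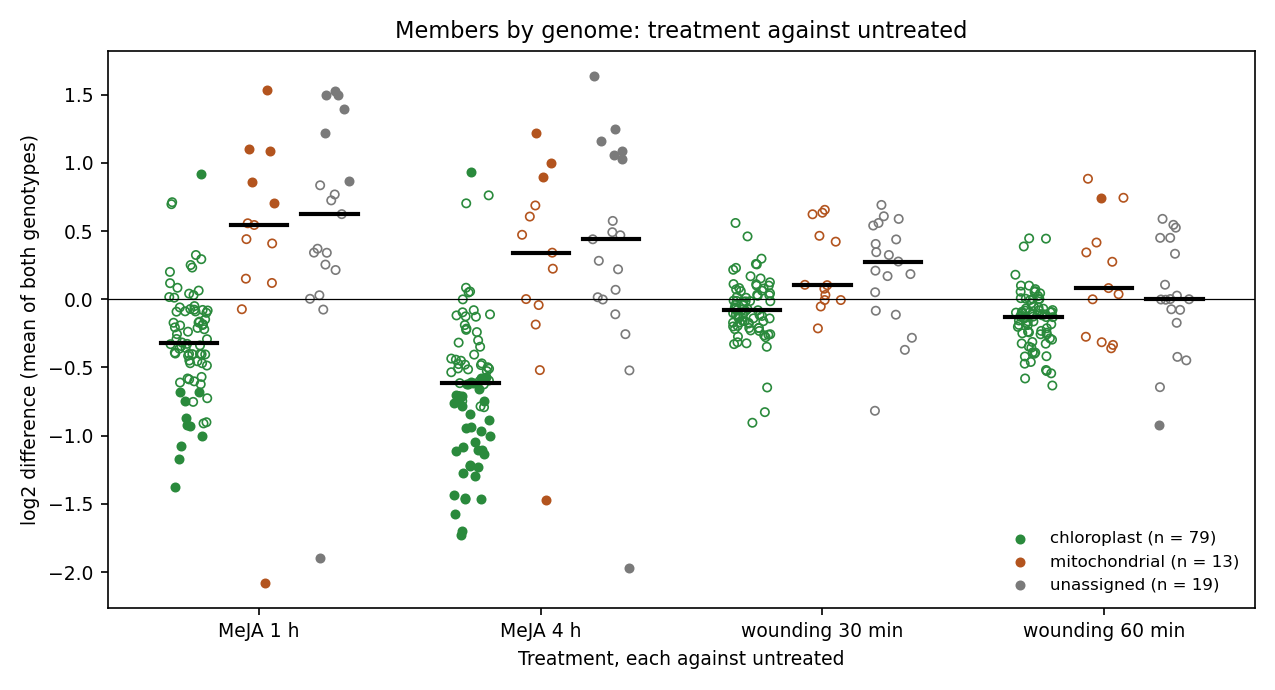
Log2 difference of each treatment against untreated (mean of both genotypes, vertical axis) for 79 chloroplast, 13 mitochondrial and 19 unassigned probe sets in each of 4 treatments, with filled points for adjusted p under 0.05, open points for the rest, and black lines at the medians. Chloroplast medians were -0.32 and -0.61 at 1 h and 4 h of MeJA, where mitochondrial medians were 0.54 and 0.34, and in both wounding comparisons 0 chloroplast points are filled.

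After 4 h of MeJA the chloroplast transcripts were lower across most classes of genes. Of 79 probe sets 36 (45.6%) fell and 1 rose, while 18.7% of all 15382 probe sets tested fell and 18.8% rose. The median of the chloroplast probe sets was -0.61 (-0.61 in the Col-0 pair and -0.57 in the Ri17 pair), against 0.00 for all probe sets tested. Differences lay below 0 in both genotypes for 64 of the 79 (81.01%), against 36.44% of all probe sets. Of the 37 calls, 9 held when any single array was left out and under every other setting tried, namely *rpl33*, *petG*, *ndhH*, *rpl36*, *psbK*, *rpl20*, *rpoA*, *rps16* and *psbZ*. The number called came to 11 with the Col-0 4 h array omitted, 21 with the untreated Ri17 array omitted and 23 with the Ri17 4 h array omitted, and the median stayed between -0.70 and -0.52 over the 10 omissions.

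At 1 h of MeJA the chloroplast median was -0.32 (-0.19 in Col-0 and -0.43 in Ri17). At that time 10 of 79 probe sets (12.7%) fell, while 15.8% of all probe sets tested fell, so the count of lower calls does not set these genes apart. Of the 79, 1 (1.27%) rose, while 15.7% of all probe sets tested rose. Of these 11 calls 0 held through the omission of each single array: 0 chloroplast probe sets were called with the Col-0 1 h array omitted, and 2 with either the untreated or the 1 h Ri17 array omitted. Set against 1 h, 5 of 79 were lower at 4 h and 0 higher (7.93% and 6.69% of all probe sets tested), with a median of -0.27. The 5 were *rpl33*, *rpl20*, *psbZ*, *psbK* and *rps16*. The count came to 0 when any 1 of the 4 MeJA arrays was omitted.

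Without reference to a model, the 4 MeJA arrays all lay below the 6 other arrays for 26 of the 79 chloroplast probe sets (32.9%, against 7.97% of all probe sets tested). They all lay above for *rps14* and *ndhB* (2.53%, against 13.1%).

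Photosystem II splits water and starts photosynthetic electron transport. Of its 15 probe sets 8 fell at 4 h of MeJA, 0 rose and the median was -0.58. *psbK*, which encodes a small membrane subunit, had a signal of 17302 untreated, 12529 and 6883 at 1 h and 4 h of MeJA, and 18713 and 20846 at 30 and 60 min after wounding in Col-0. In Ri17 the same 5 conditions gave 19150.2, 12011, 7986, 17289 and 17160.2. Both 4 h arrays were the lowest and the wounded arrays overlapped the untreated ones. The difference at 4 h was -1.30 ± 0.19 (adjusted p = 0.002).

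*psbZ*, another small subunit of photosystem II, measured 14792, 11257, 5889, 12023 and 10406 in Col-0 in the same order of conditions. In Ri17 it measured 11608, 10187, 6328, 11164 and 9618. Both 4 h arrays again lay well under the other 8, at -1.10 ± 0.18 (adjusted p = 0.0031), and the difference between 4 h and 1 h was -0.81 ± 0.18 (adjusted p = 0.0257). The core antenna genes *psbC* (-1.05 ± 0.27) and *psbB* (-0.88 ± 0.20) fell too, and *psbT* by 0.97 ± 0.18. The gene of the reaction centre protein D1, *psbA*, measured -0.11 ± 0.20 and that of D2, *psbD*, -0.51 ± 0.30. Another small subunit gene, *psbM*, measured 28946, 29550.0, 30295, 36749.6 and 35684 in Col-0 and 22269, 32773, 23914, 33211 and 33430.4 in Ri17. MeJA and untreated arrays overlapped, and all 4 wounded arrays were the highest, at 0.46 ± 0.19 and 0.44 ± 0.19 without passing the test (adjusted p = 0.146 and 0.134).

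Photosystem I, which passes electrons on to ferredoxin, had 5 probe sets, of which 1 fell at 4 h: *psaC*, the gene of the iron-sulfur subunit (-0.76 ± 0.24, adjusted p = 0.044). *psaB*, a core subunit gene, measured 19523, 20291, 19153, 22377 and 19576 in Col-0. The Ri17 arrays gave 19639, 16653, 19990.0, 19687 and 20217. These 10 values show no separation of any treatment, and the difference at 4 h was -0.00 ± 0.18. *psaA*, the gene next to it, which encodes the partner subunit, measured 1555, 3428, 2823, 2157 and 1993 in Col-0 and 2088, 2538, 3047, 2144 and 2785 in Ri17. Both untreated arrays were lower than the MeJA arrays, the wounded arrays overlapped the MeJA arrays, and 0.71 ± 0.25 and 0.70 ± 0.25 at 1 h and 4 h did not pass the test (adjusted p = 0.0685 and 0.0635).

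The cytochrome b6f complex links both photosystems. At 4 h of MeJA 3 of its 6 chloroplast genes fell. *petG*, a small subunit, measured 1359, 745, 513, 1008 and 1302 in Col-0, in the order untreated, MeJA 1 h, MeJA 4 h, wounding 30 min and wounding 60 min, which is kept from here on. Ri17 gave 1159, 586, 347, 1062 and 856. All 4 MeJA arrays lay below the other 6. *petG* fell by 0.92 ± 0.21 at 1 h (adjusted p = 0.0159) and by 1.57 ± 0.21 at 4 h (adjusted p = 0.0015), and the call at 1 h was lost with either 1 h array or the untreated Ri17 array omitted (-0.99 to -0.86 over all omissions). *petL*, also a small subunit, measured 3098, 1198, 756, 2336 and 2461 in Col-0 and 2449, 1431, 1333, 2429 and 1793 in Ri17, again with all MeJA arrays lowest. It fell by 1.07 ± 0.31 and 1.46 ± 0.31. The 1 h call was lost on omission of any of 6 arrays (-0.82 with the untreated Col-0 array omitted). The 4 h call was lost with the untreated or the 4 h Col-0 array omitted (-1.93 to -0.99 over all omissions).

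The gene of cytochrome f, *petA*, was the other that fell at 4 h (-0.71 ± 0.22). *petB*, the gene of cytochrome b6, measured 22222, 22058, 17529, 26914 and 27942 in Col-0. Values in Ri17 were 26389, 19866, 19059.6, 24071 and 19533. The MeJA arrays overlapped the wounded ones, and the difference at 4 h was -0.41 ± 0.22 (adjusted p = 0.192).

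**Figure D2:**
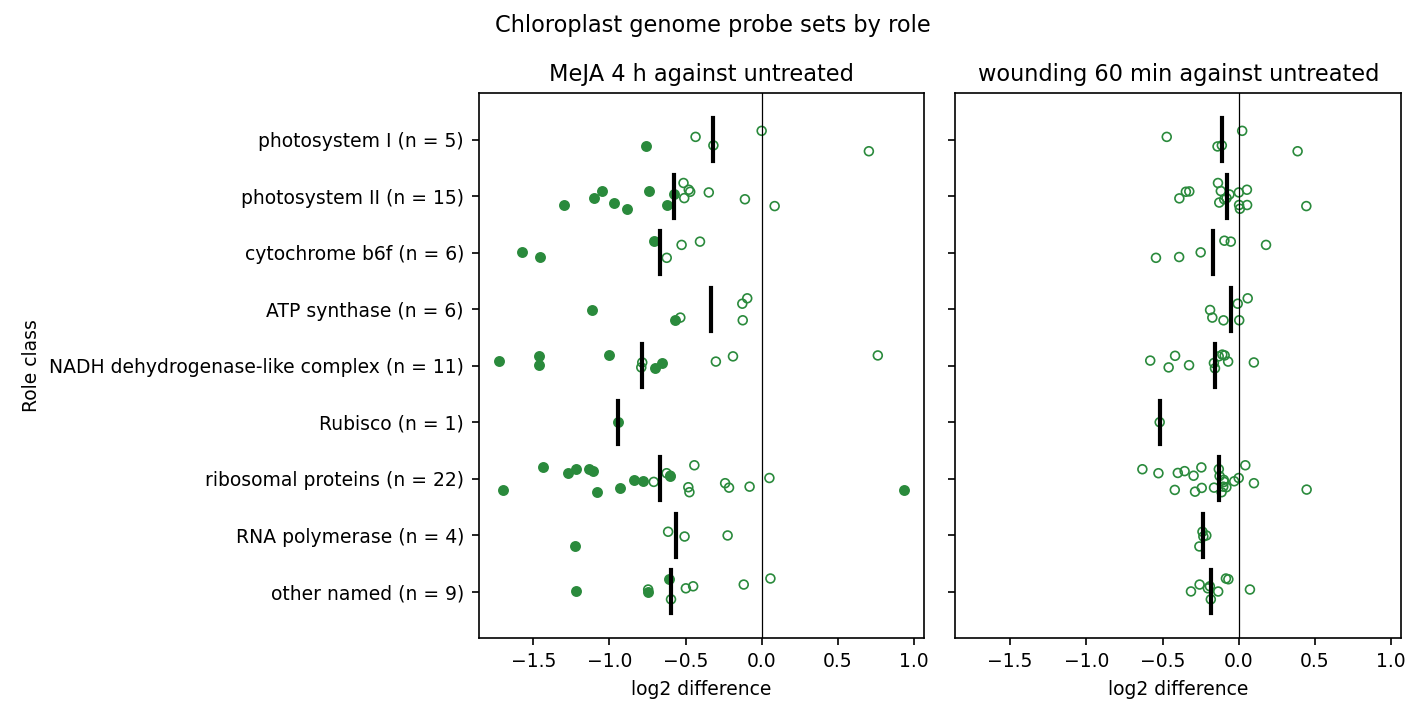
Log2 difference against untreated (horizontal axis) of the 79 chloroplast probe sets by role class (vertical axis), at 4 h of MeJA (left) and 60 min after wounding (right), with filled points for adjusted p under 0.05 and black lines at class medians. At 4 h of MeJA the class medians lie between -0.94 (the single Rubisco gene) and -0.32 (photosystem I), and on the right 0 points are filled.

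The NADH dehydrogenase-like complex carries electrons around photosystem I and is encoded by 11 chloroplast genes on the array. Of these 6 fell at 4 h of MeJA, with a class median of -0.78. *ndhE* measured 2196, 948, 602, 1351 and 2002 in Col-0. On the Ri17 arrays it was 2134, 1417, 711, 989 and 1047. Both untreated arrays were the highest and both 4 h arrays the lowest, and 3 of the 4 wounded arrays lay below the Ri17 array at 1 h of MeJA. Its difference at 4 h was the lowest of all chloroplast probe sets, -1.73 ± 0.35 (adjusted p = 0.0079), and the call was lost with the Col-0 4 h array omitted (-1.95 to -1.50 over all omissions).

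*ndhG* measured 1123, 361, 335, 956 and 993 in Col-0 and 1181, 543, 521, 948 and 748 in Ri17. All 4 MeJA arrays lay below the other 6. At 1 h it was the chloroplast gene with the lowest difference, -1.38 ± 0.28 (adjusted p = 0.0096), and it stood at -1.46 ± 0.28 at 4 h (adjusted p = 0.0063). The 1 h call was lost with the untreated or the 1 h Col-0 array omitted (-1.64 to -1.12), and the 4 h call with the Col-0 4 h array omitted (-1.75 to -1.17). *ndhH* measured 1402, 953, 639.7, 1494 and 1476 in Col-0 and 2103, 931, 605, 1504 and 1271 in Ri17, with the same separation, at -0.87 ± 0.23 and -1.46 ± 0.23 (adjusted p = 0.0025 at 4 h). The 1 h call of *ndhH* was lost with either 1 h array or the untreated Ri17 array omitted (-1.20 to -0.53). *ndhI*, which lies between *ndhG* and *ndhH* in the RefSeq gene order (assembly TAIR10.1), measured 23768, 24696, 21564, 31029 and 28744 in Col-0. The 5 Ri17 values were 28906, 24237, 20975, 27346 and 21714. These ranges overlapped, and the difference at 4 h was -0.30 ± 0.20 (adjusted p = 0.291). *ndhB*, from a gene present in both copies of the inverted repeat, was the 1 member of the class above 0, at 0.76 ± 0.33 without passing the test (adjusted p = 0.111).

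The gene of the large subunit of Rubisco, the enzyme that fixes carbon dioxide, is *rbcL*. Its signal was 6365, 5674, 3776, 6339 and 4664 in Col-0. In Ri17 it was 7146, 4269.9, 3256, 4974 and 4753. Both 4 h MeJA arrays were the lowest, while the 1 h arrays overlapped the wounded arrays. *rbcL* fell at 4 h by 0.94 ± 0.20 (adjusted p = 0.0103). This call was lost with either 4 h array omitted (-1.15 to -0.74), and the values at 1 h of MeJA and 60 min after wounding were -0.45 ± 0.20 and -0.52 ± 0.20 without a call.

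Of the 6 ATP synthase genes 2 fell at 4 h, *atpI* and *atpA*. *atpI*, a subunit of the membrane sector, measured 662, 313, 244, 678 and 666 in Col-0. In Ri17 it measured 881, 366, 511, 779 and 675. All MeJA arrays lay below the other 6, with differences of -1.17 ± 0.27 at 1 h (adjusted p = 0.0146) and -1.11 ± 0.27 at 4 h (adjusted p = 0.0154). The 1 h call was lost on omission of any of its 4 arrays (-1.27 to -1.07), the 4 h call with either untreated array or the Col-0 4 h array omitted (-1.54 to -0.69). *atpA*, the gene of the alpha subunit, measured -0.57 ± 0.19 (adjusted p = 0.0488), a call lost on omission of each of the 10 arrays in turn (-0.76 to -0.39). *atpB*, the beta subunit gene, measured 28472, 31327, 28161, 33658 and 32169 in Col-0 and 32618, 27651, 27723, 32189 and 29011 in Ri17. Its arrays overlapped, at -0.13 ± 0.17 at 4 h (adjusted p = 0.616).

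Ribosomal protein genes made up the largest class, 22 probe sets, of which 11 fell and 1 rose at 4 h of MeJA (median -0.67). *rpl33*, a protein of the large ribosomal subunit, had the smallest adjusted p of the chloroplast probe sets at 4 h. It measured 14127, 10014, 5086, 16355 and 12880.3 in Col-0. The Ri17 arrays gave 19278, 9688, 5071, 14456 and 11821. The arrays fell into separate steps, with both 4 h arrays lowest, both 1 h arrays next and all others above. *rpl33* fell by 0.74 ± 0.20 at 1 h (adjusted p = 0.03) and by 1.70 ± 0.20 at 4 h (adjusted p = 8.911e-04), and 4 h was lower than 1 h by 0.96 ± 0.20 (adjusted p = 0.0235). The 1 h call was lost on omission of any of 5 arrays (-1.01 to -0.48), and the call of 4 h against 1 h on omission of any of its 4 arrays (-0.91 with the Col-0 1 h array omitted).

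*rpl20*, from the same stretch of the genome, measured 732, 595, 276, 711 and 628 in Col-0. Ri17 gave 862, 641, 391, 567 and 577. Both 4 h arrays were lowest and the 1 h arrays overlapped the wounded ones, at -1.27 ± 0.23 at 4 h (adjusted p = 0.005). The difference between 4 h and 1 h, -0.91 ± 0.23 (adjusted p = 0.0404), was lost on omission of any of 8 arrays (-1.18 to -0.65). *rpl23*, which lies in the inverted repeat, measured 11250.0, 6234, 6542, 10955 and 12444 in Col-0 and 14998, 7438, 7076, 12118 and 9689 in Ri17. All MeJA arrays lay below the other 6 with no further step between 1 h (-0.93 ± 0.22, adjusted p = 0.0169) and 4 h (-0.93 ± 0.22, adjusted p = 0.0144). Both calls were lost with the untreated Ri17 array or either array of the treatment omitted (-1.12 to -0.74). *rpl2*, its neighbour, measured 19523, 17617, 13799.5, 23615 and 21259.8 in Col-0 and 24129.7, 16942, 17490.2, 21654 and 19810.0 in Ri17, at -0.48 ± 0.20 at 4 h (adjusted p = 0.0972). Its 4 MeJA arrays lay below the 6 others, yet the difference did not pass the test.

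The gene that rose was *rps14*, a protein of the small ribosomal subunit. Its signal was 78.6, 154, 189, 119.7 and 132 in Col-0. In Ri17 it was 92.7, 170.2, 140.4, 132 and 103. All 4 MeJA arrays lay above the 6 others, and both untreated arrays were the lowest. *rps14* rose by 0.92 ± 0.23 at 1 h (adjusted p = 0.0211) and by 0.93 ± 0.23 at 4 h (adjusted p = 0.0171). Both calls were lost with the untreated Col-0 array (0.74 at 1 h) or the Col-0 array of the treatment (0.70 at 4 h) omitted, and that at 1 h also with the Ri17 1 h array omitted. In the RefSeq order *rps14*, *psaB* and *psaA* are neighbours, with differences at 4 h of 0.93, -0.00 and 0.70. Along *petL*, *petG*, *psaJ*, *rpl33*, *rps18* and *rpl20*, which follow each other directly, the differences at 4 h were -1.46, -1.57, -0.32, -1.70, -1.08 and -1.27. Of these *psaJ*, a small photosystem I subunit, alone did not pass the test (adjusted p = 0.26).

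**Figure D3:**
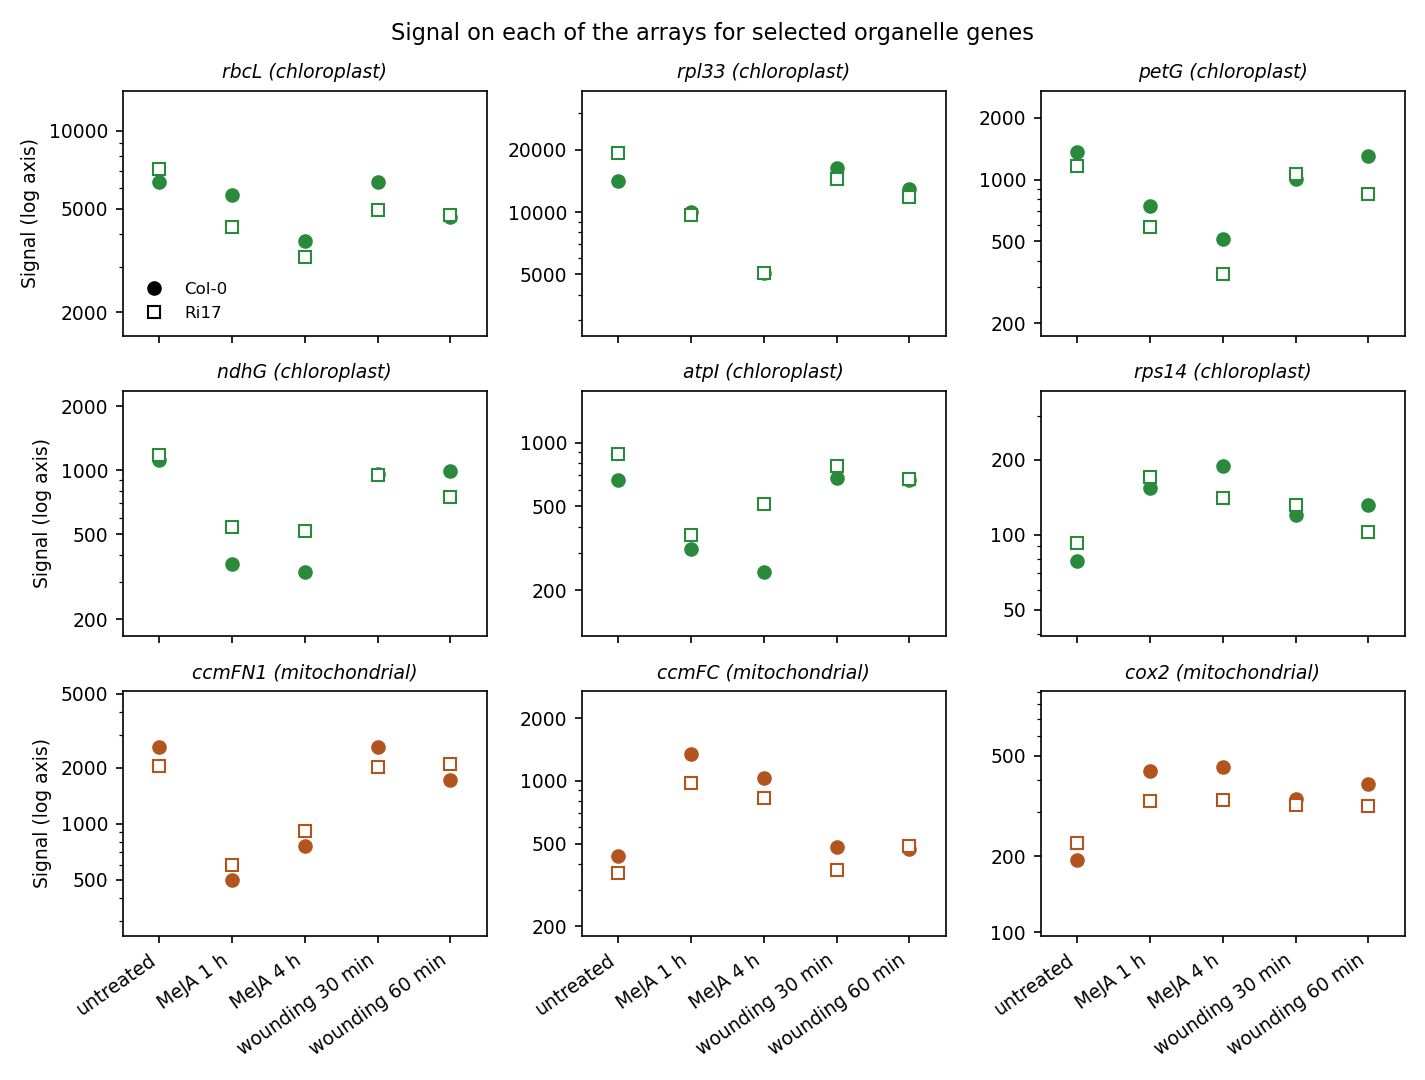
Signal (vertical log axis) of 6 chloroplast and 3 mitochondrial genes on each of 10 arrays by condition (horizontal axis), with filled circles for Col-0 and open squares for Ri17. For *rpl33*, *petG*, *ndhG*, *atpI* and *ccmFN1* the 4 MeJA arrays lie below the 6 others, for *rps14* and *ccmFC* above them.

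The chloroplast also encodes the core of its own bacterial-type RNA polymerase. *rpoA*, the alpha subunit gene, measured 10729.7, 7037, 4891, 11891 and 11107 in Col-0. Values in Ri17 were 13599, 8042, 5453, 10974 and 9187. Both 4 h arrays were lowest, both 1 h arrays next, and *rpoA* fell by 0.68 ± 0.20 (adjusted p = 0.0407) and 1.23 ± 0.20 (adjusted p = 0.0035). The 1 h call was lost on omission of any of 7 arrays (-0.86 to -0.51). The other 3 subunit genes, *rpoB*, *rpoC1* and *rpoC2*, measured -0.61 ± 0.29, -0.22 ± 0.21 and -0.51 ± 0.32 at 4 h and were not called.

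Among 9 other named chloroplast genes 3 fell at 4 h. *accD*, a subunit of the acetyl-CoA carboxylase that starts fatty acid synthesis, measured 2189.7, 1084, 765, 2201 and 1799.7 in Col-0. On the Ri17 arrays it was 1859, 932, 978, 1479 and 1465. All MeJA arrays lay below the others, at -1.01 ± 0.24 and -1.22 ± 0.24 (adjusted p = 0.0173 and 0.0067). The call at 1 h was lost on omission of any of its 4 arrays (-1.03 to -0.98) and that at 4 h with the Col-0 4 h array omitted (-1.56 to -0.88). *ccsA*, which attaches haem to c-type cytochromes, fell by 0.68 ± 0.19 and 0.75 ± 0.19. *clpP*, the gene of a protease subunit, measured 15741, 13435, 9753, 18978 and 15467 in Col-0 and 12057, 11155, 8333, 13753 and 11169.5 in Ri17. Its 4 h arrays were each the lowest of their genotype, at -0.61 ± 0.17 (adjusted p = 0.0256), and the call was lost on omission of any of the 4 arrays compared (-0.70 to -0.53).

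The size of the signal was set against the size of the difference as a description of the probe sets. Over the 79 probe sets Pearson's r between mean log2 signal and the difference at 4 h of MeJA was -0.00 and Spearman's rho 0.19, across genes that share the same arrays. Of 26 probe sets with a median signal above 10000, 12 were called at 4 h, and of the other 53, 25. Whether scanner saturation compressed the brightest probe sets was not tested. Over the 10 arrays the correlation of a chloroplast probe set with the mean of the other 78 had a median of 0.79, from -0.76 for *rps14* to 0.98 for *rpl33*, with 6 below 0. Array scaling is shared by all of these values.

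Among mitochondrial transcripts more were called higher than lower under MeJA. At 1 h 5 of 13 probe sets (38.5%) rose and 1 fell (15.7% and 15.8% of all probe sets tested), with a median of 0.54 (0.51 in Col-0 and 0.56 in Ri17). At 4 h 3 (23.1%) rose and 1 (7.69%) fell (18.8% and 18.7% of all probe sets tested). The share of higher calls at 4 h was thus near that of all probe sets, and the median was 0.34 (0.38 and 0.24). Both times share the untreated arrays, and the difference between mitochondrial and chloroplast transcripts was not tested as such. The 6 calls at 1 h came to 2 with either 1 h array omitted, 3 with the untreated Col-0 array omitted and 4 with the untreated Ri17 array omitted. The 4 at 4 h came to 2 with the Col-0 4 h array omitted, where the median was 0.04. The calls for *ccmFN1* and *ccmFC* held when any single array was left out and under every other setting tried, at both times.

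The largest mitochondrial differences under MeJA were in genes for the attachment of haem to cytochrome c. *ccmFN1*, a subunit of the haem lyase, measured 2597, 498, 759, 2587 and 1727 in Col-0. The 5 Ri17 values were 2032, 596, 909, 2024 and 2087. All 4 MeJA arrays lay far below the 6 others, and the 1 h arrays lay below the 4 h arrays. *ccmFN1* fell by 2.08 ± 0.24 at 1 h (adjusted p = 9.353e-04) and by 1.47 ± 0.24 at 4 h (adjusted p = 0.0031).

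*ccmFC*, the gene of another part of the same lyase, went the other way. It measured 434, 1352, 1029.6, 482 and 469.6 in Col-0. In Ri17 it measured 361, 975, 826, 375 and 488. All 4 MeJA arrays lay above the 6 others, and *ccmFC* rose by 1.54 ± 0.19 (adjusted p = 0.0012) and 1.22 ± 0.19 (adjusted p = 0.0025). *ccmFN2*, another lyase gene, measured 51.8, 101, 95.7, 75.5 and 72.5 in Col-0 and 28.3, 88.9, 52.9, 62.3 and 91.6 in Ri17, where the untreated Ri17 array lay under the floor of 37.7 set for low signals. It rose at least 2.14-fold at 1 h (adjusted p = 0.0222), a call lost on omission of any of the 4 arrays compared. *ccmB*, the gene of a membrane subunit of a transporter, measured 112, 211, 220.1, 121 and 109.8 in Col-0 and 128, 144, 151, 88.3 and 84.4 in Ri17. Its 4 MeJA arrays lay above the 6 others, without a call (0.54 ± 0.23 and 0.61 ± 0.23, adjusted p = 0.108 and 0.0723). Probe sets of *ccmFC* and 5 other mitochondrial genes are of the kind that can match more than 1 transcript.

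Complex I of the respiratory chain had 6 probe sets, of which *nad3* and *nad4L* rose at 1 h and *nad3* at 4 h. *nad3* measured 349, 692, 658, 359 and 288 in Col-0. The Ri17 arrays gave 211, 481, 445, 390.1 and 255. All MeJA arrays lay above the 6 others, at 1.09 ± 0.24 (adjusted p = 0.013) and 1.00 ± 0.24 (adjusted p = 0.0157). Its calls were lost with the untreated Ri17 array (0.87 and 0.78) or either array of the treatment omitted. The platform annotation also lists this probe set at a chromosome 2 locus, AT2G07751, so that nuclear and mitochondrial copies cannot be told apart. Whether the other mitochondrial probe sets also match nuclear copies was not tested. *nad4L* measured 0.71 ± 0.19 at 1 h (adjusted p = 0.0275), a call lost on omission of any of 6 arrays (0.56 to 0.85). *nad4*, another complex I gene, measured 2234, 2191, 1775, 1929.8 and 2115 in Col-0 and 1763, 1624, 1716, 1896 and 1961 in Ri17. No treatment stood apart there (-0.07 ± 0.18 and -0.19 ± 0.18 under MeJA).

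*cox2*, a subunit gene of cytochrome oxidase, measured 194, 435, 453, 338 and 386 in Col-0. Ri17 gave 225, 332, 334, 320.2 and 317. Both untreated arrays were the lowest of the 10, and wounded and MeJA arrays overlapped. *cox2* rose by 0.86 ± 0.21 at 1 h of MeJA (adjusted p = 0.0199) and 0.90 ± 0.21 at 4 h (adjusted p = 0.0146). The 4 h call was lost with the untreated (0.64) or the 4 h Col-0 array omitted, and the 1 h call with either 1 h array or the untreated Col-0 array omitted (0.61 to 1.12). The gene *mttB*, a subunit of the twin-arginine protein export system, measured 162, 209.6, 148, 139.8 and 108 in Col-0 and 135, 184, 139, 155 and 127 in Ri17. Both 1 h arrays were the highest, without a call (0.41 ± 0.19, adjusted p = 0.15). The shared probe set of the ribosomal protein genes *rpl16* and *rps3* measured 1658, 1430.3, 1456, 1729 and 1136 in Col-0 and 1016, 1451, 1159, 1128 and 901 in Ri17, where the conditions overlapped.

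**Figure D4:**
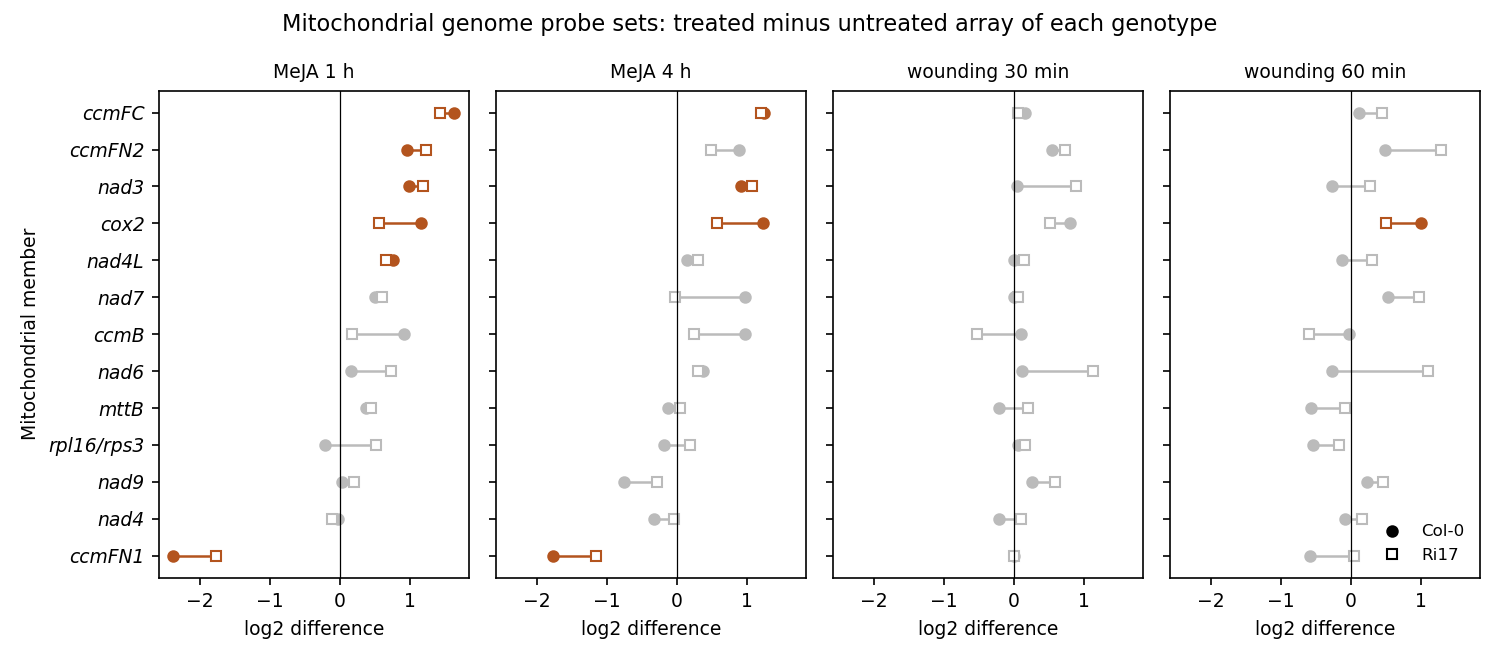
Log2 difference of the treated minus the untreated array (horizontal axis) for 13 mitochondrial probe sets (vertical axis) in 4 treatments, with filled circles for Col-0, open squares for Ri17, and colour for those with adjusted p under 0.05 in the fit over both genotypes. *ccmFN1* lies at -2.08 and -1.47 on average at 1 h and 4 h of MeJA, *ccmFC* at 1.54 and 1.22, and after wounding *cox2* at 60 min (0.74) is the 1 coloured gene.

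The 19 unassigned probe sets that passed the filter had 6 higher (31.6%) and 1 lower (5.26%) at 1 h of MeJA, with a median of 0.62, while 15.7% of all probe sets tested rose and 15.8% fell. At 4 h the numbers were again 6 and 1, with a median of 0.44, while 18.8% of all rose and 18.7% fell. Their genome was not inferred from their place in the id block. One that fell at both times, 244990_s_at, measured 401, 109.6, 113, 385 and 309 in Col-0. Values in Ri17 were 507, 134, 117, 316 and 269. All MeJA arrays lay well below the others, at -1.89 ± 0.22 (adjusted p = 9.209e-04) and -1.97 ± 0.22 (adjusted p = 6.162e-04). Among those that rose was 244923_s_at, with 75.7, 262, 297, 137 and 123 in Col-0 and 78.6, 181, 193, 94.1 and 103 in Ri17 (1.50 ± 0.22 and 1.64 ± 0.22). Its MeJA arrays lay above all others. These calls held when any single array was left out.

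Few organelle transcripts passed the test after wounding. At 30 min 0 of 79 chloroplast and 0 of 13 mitochondrial probe sets were called by limma (3 and 1 at an unadjusted p under 0.05), while 20.1% of all probe sets tested were called, 9.63% higher and 10.5% lower. The chloroplast median was -0.08, as that of all probe sets tested (-0.08). At 60 min 0 chloroplast probe sets were called by limma (4 at an unadjusted p under 0.05) and 1 mitochondrial probe set, *cox2* (0.74 ± 0.21, adjusted p = 0.0368), while 28.2% of all probe sets were called, 12.1% higher and 16.1% lower. The call for *cox2* was lost on omission of any of 9 arrays (0.49 with the untreated Col-0 array omitted), and with that array omitted 3 chloroplast probe sets were called. The chloroplast median was -0.13, against -0.14 for all probe sets, and the mitochondrial median 0.08. Of the 19 unassigned probe sets 0 were called at 30 min, and at 60 min 0 rose and 1 (5.26%) fell. This was 244954_s_at, which fell by at least 0.93 (adjusted p = 0.0314), since 1 of its 60 min arrays lay under the floor. Its call did not hold through the omission of each single array. Between 60 and 30 min 0 probe sets of either genome were called by limma (1 chloroplast and 0 mitochondrial at an unadjusted p under 0.05, with 4.39% of all probe sets called, 2.67% higher and 1.72% lower).

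Wounding and MeJA were also set directly against each other at about 1 h. At 60 min after wounding 5 of 79 chloroplast probe sets were higher than at 1 h of MeJA and 0 lower (34.5% of all probe sets tested were called, 14.2% higher and 20.3% lower). They were *atpI* (0.99 ± 0.27), *ndhG* (0.96 ± 0.28), *rpl23* (0.69 ± 0.22), *petG* (0.68 ± 0.21) and *psbK* (0.62 ± 0.19), and each was lost on omission of any of several arrays, with 0 chloroplast calls when either 1 h MeJA array or the Col-0 60 min array was omitted. Of 13 mitochondrial probe sets 1 was higher after wounding, *ccmFN1* (1.80 ± 0.24, adjusted p = 0.0018), and 5 were lower, among them *ccmFC* (-1.26 ± 0.19, adjusted p = 0.003), *nad3* (-1.09 ± 0.24, adjusted p = 0.013) and *ccmB* (-0.86 ± 0.23, adjusted p = 0.0245). With either 1 h MeJA array or the Col-0 60 min array omitted, 2 mitochondrial probe sets were called. The MeJA arrays are those of the comparison against untreated.

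No organelle transcript passed the test between the *JAV1* RNAi line and Col-0. Over the 5 conditions, 0 of 15382 probe sets were called by limma (0.0%), and among the organelle genes 4 chloroplast and 3 mitochondrial probe sets had an unadjusted p under 0.05. The former were *clpP* (-0.36 ± 0.11), *petG* (-0.33 ± 0.14), *ycf1* (0.45 ± 0.17) and *rps2* (0.45 ± 0.16), the latter *rpl16* with *rps3* (-0.39 ± 0.14), *nad3* (-0.37 ± 0.15) and *ccmB* (-0.35 ± 0.14), all with an adjusted p of 0.8. *rpl16* with *rps3* was lower in Ri17 in the untreated, 4 h and both wounded pairs. Within single conditions, with 1 array on each side and no test, the chloroplast median of Ri17 minus Col-0 was 0.17 untreated, -0.05 and 0.14 at 1 h and 4 h of MeJA, and -0.12 at both times after wounding. The mitochondrial median was -0.27, -0.18, -0.33, -0.03 and 0.06 in that order. In the authors' deposited table of change calls, which compares the probe pairs of 2 single arrays, Ri17 was called increased for 18 and decreased for 6 of 79 chloroplast probe sets in untreated plants. The authors' deposited table called 1 increased and 11 decreased at 1 h of MeJA, 13 and 0 at 4 h, 3 and 3 at 30 min and 8 and 9 at 60 min after wounding. Of 14 mitochondrial probe sets it called 0 increased and 3 decreased untreated. The mitochondrial calls were 0 and 3 at 1 h of MeJA, 0 and 2 at 4 h, 0 and 0 at 30 min and 1 and 0 at 60 min. For the 37 unassigned probe sets the calls were 0 and 1, 0 and 7, 0 and 5, 1 and 0, and 2 and 1 in that order. Over all probe sets the authors' deposited table called 9.21% increased and 9.30% decreased in untreated plants, 4.39% and 2.33% at 1 h of MeJA, 5.18% and 3.82% at 4 h, 7.29% and 4.46% at 30 min and 9.84% and 9.16% at 60 min.

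The chloroplast RNA polymerase needs sigma factors made from nuclear genes, and 6 nuclear probe sets carried a description as such a factor. They were found by these words after the data had been seen. At 1 h of MeJA 5 of the 6 fell, at 4 h 4, at 30 min after wounding 1 and at 60 min 5, and 0 rose in any of these. Of all probe sets tested 15.8%, 18.7%, 10.5% and 16.1% fell in these comparisons, which share the untreated arrays. The probe set 249769_at, described as a sigma-like factor, measured 8843, 278, 142, 669.7 and 280.3 in Col-0 and 4951, 289.9, 120.1, 709.8 and 376 in Ri17. Both untreated arrays lay several-fold above all 8 treated arrays, at -4.54 ± 0.29, -5.66 ± 0.29, -3.26 ± 0.29 and -4.35 ± 0.29 in the 4 treatments. The probe set described as *SigC*, 251929_at, measured 736, 281, 276, 561 and 294 in Col-0 and 777, 315, 258, 429 and 260.1 in Ri17. It fell by 1.35 ± 0.19, 1.50 ± 0.19 and 1.45 ± 0.19 at 1 h and 4 h of MeJA and 60 min after wounding.

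A list of 31 nuclear genes of organelle transcription and RNA turnover had 2 with a named probe set, of which 1 passed the filter. This was AT5G14580, the mitochondrial polynucleotide phosphorylase, an enzyme that degrades RNA, at 35.5, 62.1, 176, 69.0 and 21.8 in Col-0 and 29.6, 51.0, 113, 46.9 and 36.9 in Ri17. Both 4 h MeJA arrays were the highest, and it rose by at least 1.91 at 4 h (adjusted p = 7.84e-04), since both untreated arrays lay under the floor. The other, AT5G15700 (*RPOTmp*, a phage-type RNA polymerase), did not pass the filter and was not tested. Its signal was 8.8, 17.3, 81.1, 9.5 and 16.9 in Col-0 and 5.3, 15.2, 107.6, 6.5 and 8.9 in Ri17. Both 4 h MeJA arrays were the highest, and all others lay under the floor. *SIG1* to *SIG6* are also on this list, without a named probe set. Another probe set described as a polynucleotide phosphorylase, 259344_at, measured -0.69 ± 0.33 and -0.81 ± 0.33 at 1 h and 4 h of MeJA (adjusted p = 0.159 and 0.0994). One described as ribonuclease E, 263322_at, measured 0.18 ± 0.19 and 0.33 ± 0.19, and neither was called. Both were found by description words, as the sigma factors were. Of 9 kept probe sets described as chlorophyll a/b-binding proteins, nuclear-encoded partners of the photosystems, 1 fell and 0 rose at 4 h of MeJA, with a median of -0.06.

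Among 8309 kept nuclear probe sets with a named gene, those most like the chloroplast mean over the 10 arrays were AT4G32190 (Pearson's r = 0.98), AT1G60990 (0.97), *ECS1* (0.96), *MT1C* (0.96) and AT1G52870 (0.96). Those most like the mitochondrial mean were AT2G18600 (0.91), AT1G61670 (0.90), AT4G27390 (0.89), AT1G61667 (0.89) and AT3G08910 (0.87). All were chosen for this likeness among many candidates, and the values describe these arrays.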

How the data were processed

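The arrays were processed by the authors with GCOS, per the submitters' processing notes, which give no version. The deposited intensities are linear signals, scaled so that each array's mean, trimmed by 2% at each end, was about 500.1. The comparison tables hold the same intensities (largest difference 0). Per the file headers they also give a log2 ratio of Ri17 over Col-0, a change p-value with its call, and a detection p-value with its call. The genome build and the labelling primer are not given in the sources used here.

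A floor of 37.7 was applied before log2 was taken. It is the 75th percentile of the signals with an Absent call. Of 22746 probe sets that are not controls, the 15382 Present on at least 2 arrays were kept. Members were assigned to a genome by the platform's gene identifiers, matched to RefSeq (TAIR10.1), and otherwise by description. limma 3.58.1 in R 4.3.3 fitted genotype and condition as additive terms with 4 residual degrees of freedom, and p-values were two-sided and Benjamini-Hochberg adjusted over all kept probe sets at 0.05. The fit was tested on simulated data first. Python 3.11.15, NumPy 2.4.6, pandas 2.3.3, SciPy 1.17.1 and Matplotlib 3.10.9 made counts and plots. Present calls covered 56.9% to 61.0% of the probe sets of an array. Precision is limited by how few arrays there are.

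The members and lists were chosen with earlier results of these data known. Genes were named by this rule: the probe set of highest mean signal in each class, and up to 3 highest and 3 lowest called members per genome and comparison with the same sign in every pair. Genes outside the rule were named after their values were seen, as examples of their class. Alternatives were quantile normalisation, median centring, no floor, no or a stricter detection filter, a variance trend, subsets of treatments, and leaving out each array, where a lone array is assumed to vary like the others.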

Additional observations from a re-analysis of the deposited data

Results flagged for a closer look

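At 30 min after wounding the median log2 difference of the 79 chloroplast probe sets against untreated was 0.068 in the Col-0 pair and -0.165 in the Ri17 pair, so the genotypes lay on opposite sides of 0. At 60 min the median of the 13 mitochondrial probe sets was -0.0792 in Col-0 and 0.296 in Ri17. Each value rests on 1 array per side, and neither difference between the genotypes was tested.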

How the results depend on the processing

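No paired analysis was possible because the labels give no replicate numbers that could pair samples beyond genotype, and the genotype term of the reported fit already compares treatments within each genotype. Of 27 calls named by rule, 8 held under every setting, and 0 of the called values changed sign under the settings run. The chloroplast count at 4 h of MeJA stayed within 1.5 times in every setting that kept the arrays. At 1 h of MeJA chloroplast calls numbered 4 without a detection filter, 18 with probe sets Present on all arrays or with a variance trend, and 7 without the wounding arrays. Mitochondrial medians moved to 0.49 with median centring or Present on all arrays (1 h) and 0.46 with quantile normalisation (4 h). Mitochondrial calls at 30 min after wounding came to 1 with Present on all arrays. At 60 min chloroplast calls came to 1 with quantile normalisation, Present on all arrays or a trend, and mitochondrial calls to 2 with median centring and 0 without a filter or without the MeJA arrays. Between 4 h and 1 h of MeJA chloroplast calls were 3 with median centring, 2 without a floor, 1 without a filter, 8 with a trend and 0 without the wounding arrays, and mitochondrial calls 1 with Present on all arrays. The chloroplast median between 60 and 30 min moved to -0.0544 with quantile normalisation and -0.0531 with median centring. Between wounding at 60 min and MeJA at 1 h, median centring gave 9 chloroplast calls (median 0.26) and 3 mitochondrial calls, and chloroplast calls were 2 without a floor, 1 without a filter, 9 with Present on all arrays and 8 with a trend. The cause was not tested. Omitting each array in turn gave chloroplast calls of 0 to 12 (MeJA 1 h), 11 to 35 (MeJA 4 h), 0 to 3 (wounding 60 min), 0 to 7 (4 h against 1 h) and 0 to 6 (wounding 60 min against MeJA 1 h). Mitochondrial calls were 2 to 6, 2 to 5, 0 to 2, 0 to 1 and 2 to 6 in that order, and 0 to 1 at 30 min after wounding. Chloroplast medians ran from -0.423 to -0.193 (MeJA 1 h), -0.701 to -0.516 (MeJA 4 h), -0.151 to 0.0211 (wounding 30 min), -0.214 to -0.0454 (wounding 60 min), -0.0353 to 0.0386 (Ri17), -0.403 to -0.181 (4 h against 1 h), -0.193 to -0.0269 (60 against 30 min) and 0.08 to 0.195 (wounding 60 min against MeJA 1 h). Mitochondrial medians ran from 0.44 to 0.606, 0.0407 to 0.729, 0.103 to 0.226, -0.0818 to 0.273, -0.225 to -0.131, -0.343 to -0.0567, -0.141 to 0.0332 and -0.547 to -0.174 in that order.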

Other observations

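Of the nuclear probe sets inside the id block, 245035_at measured 3771 on the Ri17 array at 60 min after wounding, while its 9 other values ran from 70.8 to 137. The description of 245038_at names a latex allergen-like protein, and its signal was 189, 150.3, 2619.8, 1493 and 1604 in Col-0 and 68.9, 245, 5290.0, 2069.6 and 4951 in Ri17, in the order untreated, MeJA 1 h, MeJA 4 h, wounding 30 min and wounding 60 min. Ratios of 3' to 5' AFFX-Athal control probe sets ran from 7.52 to 13.2 for actin, 1.89 to 2.67 for GAPDH and 1.56 to 2.87 for ubiquitin over the 10 arrays. The array also holds AFFX-r2-At control probe sets of these genes, whose 3' and 5' signals lay closer together on the untreated Col-0 array. There they measured 11113 and 3256 for actin and 14622 and 12634 for GAPDH, against 5979 and 518 and 9316 and 4807 for AFFX-Athal.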
